A study of Gallus gallus with 6 samples.

Results

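The genes described are those of the cytosolic ribosome, the particle on which cells translate their messenger RNAs. Members were all probe sets, apart from the array's controls, whose platform annotation gave exactly 1 symbol made of RPL or RPS and a number, with an optional A, L or X, or RPLP0 to RPLP2 or RPSA, and no RPS6K kinase was taken in. They were 132 of 38439 probe sets and stood for 62 genes of 13009 with a symbol, 22 of the small subunit and 40 of the large subunit. The rule used symbols alone and no measured value.

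RNA came from cultured chicken neural crest cells of Brown Leghorn background, 3 cultures for each of 2 groups, and 1 array was hybridised per culture. Neural tubes of embryos at Hamburger-Hamilton stages 10 to 13 were explanted into medium with retroviral particles, and after 3 days the explants were removed and the cells that had migrated out were kept. Cells of one group (v-Myb arrays) expressed v-Myb-L3,4A-HAER. This is the oncoprotein v-Myb, a transcription factor, altered in its leucine zipper and inducible by 4-OH-tamoxifen. Cells of the other (N118D arrays) expressed v-Myb-L3,4A-N118D-HAER, which also carries a point mutation in the DNA-binding domain. All 6 cultures were exposed to 4-OH-tamoxifen (200 nM) during 4 hours, and there was no untreated array. Both groups thus share the virus, the zipper mutation, the HAER part that both names carry, and the agent. The labels do not say whether replicates came from separate embryos, so the replicate spread behind p-values is that of these cultures only. The limma test also draws the variance of each probe set toward a value estimated from all tested probe sets. Standard errors, intervals and p-values of a member therefore depend on the other probe sets too. Each array measures a culture as a whole, so fewer cells of a type and less RNA per cell cannot be told apart.

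A cytosolic ribosome has a small subunit, which binds and decodes the messenger RNA, and a large subunit, which joins the amino acids. Each subunit is built on ribosomal RNA with ribosomal proteins, nearly all present as a single copy per particle. In vertebrates the messenger RNAs of ribosomal proteins begin with a tract of pyrimidines (the TOP motif), through which the mTOR pathway controls their translation, so that much of their regulation takes place after transcription. Several ribosomal proteins are known from mice in which a mutation alters pigmentation or the axial skeleton.

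The members differed little between the groups. Of 105 probe sets for 61 genes that could be tested, 0 rose and 0 fell at an adjusted p of 0.05 in limma, and 0 of all 16526 tested probe sets passed, a background of 0%. At an unadjusted p under 0.05 the count was 0 members, against 315 probe sets or 1.91% over the whole table, and the smallest unadjusted p of a member was 0.132. Differences, always given in log2 units as the v-Myb mean minus the N118D mean, ran from -0.20 to 0.16 among the members, and their median was 0.0062, beside -0.0018 over all tested probe sets. The median absolute difference was 0.018 in members and 0.075 in all tested probe sets. Level was not matched in these comparisons, as 69.5% of tested members had a mean of at least 12, beside 7.22% of all tested probe sets. Of the 1120 other tested probe sets with such a mean, 3 had an unadjusted p under 0.05 in limma, or 0.27%. Their median absolute difference was 0.039, beside 0.014 in the 73 members with such a mean. Level still differed within this range, as 68 of the 73 members had a mean of at least 14, beside 155 of the 1120 others. Of the 105 members, 62 were higher and 43 lower, and the share above 0 over the whole table was 49.2%. With each array centred on its own median, 74 members were higher and their median difference was 0.019, beside 0.011 over all tested probe sets. Without v-Myb replicate 2 that count was 36 and the median difference was -0.011, beside -0.0078 over all tested probe sets. Without N118D replicate 2 the count was 43 and the median -0.0055, beside -0.0063 over all. The sign of the members' median thus rested on single arrays, and the median over the whole table moved as well.

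**Figure D1:**
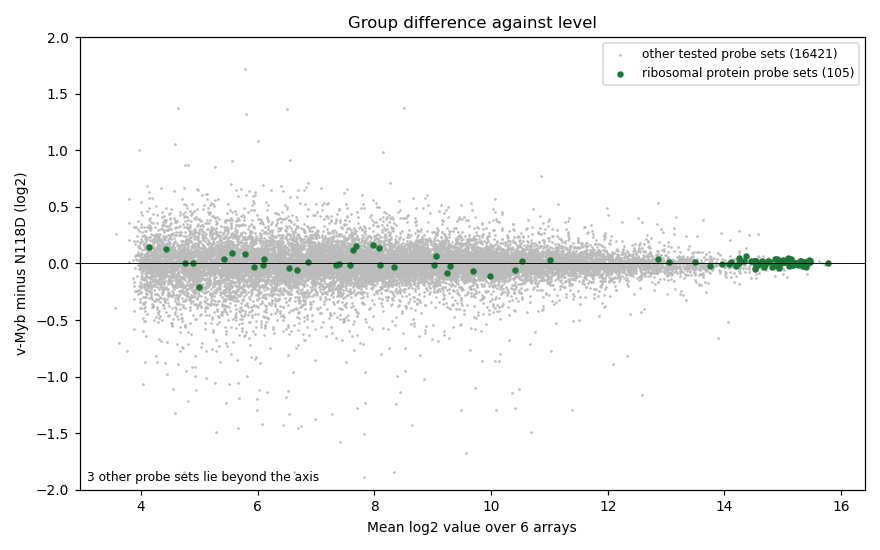
Difference between the groups (v-Myb minus N118D, log2) against the mean log2 value over 6 arrays, for 105 ribosomal protein probe sets (green) and the other tested probe sets (grey), each point 1 probe set. The green points lie between -0.20 and 0.16, and 3 other probe sets lie beyond the axis.

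Most members gave values near the top of the array's range. Of the 132 probe sets, 68 had a mean of at least 14 and 5 more a mean of 12 to 14, on a scale whose highest value was 15.83. Members made up 30.5% of the 223 tested probe sets with a mean of at least 14, and their median level was 14.58 beside 8.06 for all tested probe sets. For 54 genes the probe set with the highest value had a mean of at least 14, for 4 it lay between 12 and 14, and for 4 genes, RPL31, RPS13, RPS27L and RPL3L, it lay under 12. Probe sets differ in how strongly they hybridise, so these levels do not rank the genes. Whether signals at the top of the range were saturated was not tested.

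**Figure D2:**
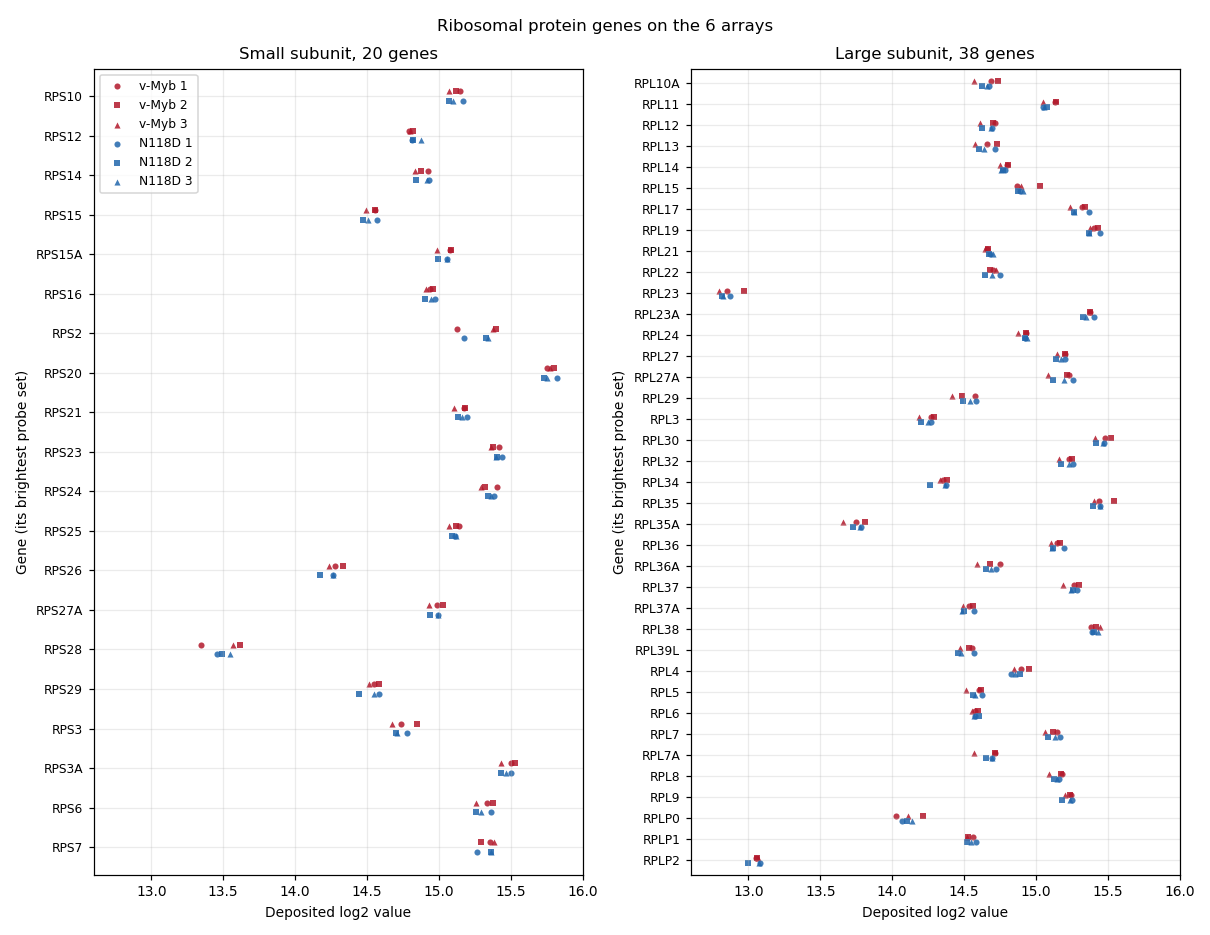
Deposited log2 values of 20 small subunit genes and 38 large subunit genes on the 6 arrays, each gene shown by the probe set with its highest value where that was at least 12. Red symbols are v-Myb arrays and blue symbols N118D arrays (circle, square and triangle for replicates 1, 2 and 3), and the colours lie over each other in nearly every row.

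Among the 73 members with a mean of at least 12, which covered 58 genes, the largest difference was 0.07 (1.05-fold). Their 95% confidence intervals in limma had a median half-width of 0.17 and the outermost bound lay at -0.30, a 1.23-fold change. Small subunit genes had a median difference of 0.0088 over 25 of these probe sets, with 17 higher. Large subunit genes had a median of 0.0053 over 48, with 29 higher. Of the 1120 other tested probe sets with a mean of at least 12, 499 were higher, or 44.6%, and their median was -0.0078. The groups of arrays did not overlap for 3 of the 105 tested members, or 2.86%, where the share over the whole table was 5.74%. Without v-Myb replicate 1 that count was 17, or 16.2%, beside 25.1% of all tested probe sets, and without v-Myb replicate 3 it was 18, or 17.1%, beside 16.5%.

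The 3 members without overlap were RPL36, RPS12 and RPL21. RPL36, a large subunit protein, had values of 14.38, 14.40 and 14.44 on v-Myb arrays and 14.34, 14.35 and 14.31 on N118D arrays, replicates 1 to 3 in turn. All v-Myb values were above all N118D values, and the difference was 0.07 with a standard error of 0.065. The standard deviations of these values were 0.032 on v-Myb and 0.019 on N118D arrays, and the standard error also reflects the other tested probe sets. Its unadjusted p in limma was 0.320, and 0.0268 when no filter was set. A separate RPL36 probe set with a mean of 15.14 differed by -0.0022. RPS12, a small subunit protein, had values of 4.57, 4.47 and 4.45 against 4.33, 4.39 and 4.40 on a probe set close to the minimum for testing. Its difference was 0.13 with a standard error of 0.072 and an unadjusted p of 0.132 in limma, and the RPS12 probe set with the highest values, at a mean of 14.82, differed by -0.029. RPL21, a large subunit protein, had values of 14.66, 14.67 and 14.64 against 14.68, 14.68 and 14.70, a difference of -0.028, on the member with the second smallest spread of those at 12 or over. The other 3 tested RPL21 probe sets differed by -0.054, 0.12 and 0.15, with overlap in each case.

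Most of the other members with the smallest unadjusted p were dim probe sets, with a mean under 12, nearly all of genes that also had a bright one. RPS25, a small subunit protein that some viral messenger RNAs need for initiation, had values of 7.89, 8.16 and 8.10 in v-Myb and 7.90, 7.85 and 7.90 in N118D cultures on a probe set with a mean of 7.97. v-Myb replicates 2 and 3 were above all N118D arrays and replicate 1 was not, and the difference of 0.16 had a 95% interval from -0.07 to 0.40. Without v-Myb replicate 1 it was 0.25 with an adjusted p of 0.601 in limma. The RPS25 probe set with the highest values, at a mean of 15.11, differed by 0.0056. RPS13, a small subunit protein, had 2 tested probe sets that went opposite ways. On the first its values were 4.80, 4.96 and 4.92 against 5.56, 4.90 and 4.82, where N118D replicate 1 alone was high, and the difference was -0.20 with a standard error of 0.21. On the second they were 4.32, 3.98 and 4.32 against 4.16, 4.06 and 3.98, a difference of 0.14. Of 25 genes with more than 1 tested probe set, 19 had differences of opposite sign, and only in RPS13 were these more than 0.3 apart. RPL21 and RPL29, both large subunit proteins, had dim probe sets with differences of 0.15 and 0.093, while a bright RPL29 probe set differed by -0.048. On the lower side RPS14, a small subunit protein, differed by -0.11 and -0.069 on 2 probe sets with means of 9.98 and 9.69, and RPL27A by -0.083 on one with a mean of 9.24.

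The P stalk of the large subunit, which recruits elongation factors, is built from RPLP0, RPLP1 and RPLP2. RPLP0 had values of 14.02, 14.21 and 14.11 on v-Myb arrays and 14.07, 14.10 and 14.14 on N118D arrays. RPLP1 had values of 14.56, 14.53 and 14.52 against 14.58, 14.52 and 14.55, and RPLP2 of 13.05, 13.06 and 13.07 against 13.08, 13.00 and 13.07. The groups overlapped in all 3 genes, and their differences lay between -0.013 and 0.012. A further RPLP1 probe set with a mean of 9.05 differed by 0.069.

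RPL5 and RPL11, which bind the 5S ribosomal RNA, and RPL23 are known from mammalian cells to bind MDM2, the ubiquitin ligase of p53, when ribosome assembly fails. RPL5 had values of 14.61, 14.62 and 14.51 against 14.63, 14.56 and 14.58. RPL11 was at 15.13, 15.14 and 15.05 against 15.05, 15.08 and 15.06, and RPL23 at 12.85, 12.97 and 12.80 against 12.87, 12.82 and 12.82. The differences were -0.0099, 0.046 and 0.037, and the groups overlapped. Of 10 tested p53 response genes, 0 passed the test in either direction, and their median difference was -0.073, with 7 lower. CDKN1A, the cell cycle inhibitor that p53 induces, differed by 0.17 with a standard error of 0.13, and MDM4 and TP53INP1 by 0.30 and -0.14.

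Mutations of Rps7, Rps20, Rpl24, Rpl27a and Rpl38 in mice alter pigmentation, the axial skeleton or both. On the probe sets with their highest values, RPS7 was at 15.36, 15.29 and 15.38 in v-Myb and 15.26, 15.36 and 15.36 in N118D cultures. RPS20 was at 15.75, 15.80 and 15.77 against 15.82, 15.73 and 15.75, and RPL24 at 14.93, 14.93 and 14.87 against 14.93, 14.92 and 14.94. The values overlapped in each of these genes. RPL27A was at 15.23, 15.21 and 15.09 against 15.26, 15.12 and 15.19. RPL38 was at 15.38, 15.42 and 15.44 against 15.39, 15.40 and 15.43. The 5 differences lay between -0.018 and 0.013, and the groups of arrays overlapped throughout. In the same cultures melanoblast markers were higher in v-Myb cultures in 8 of 8 tested genes, with 0 past the test and a median difference of 0.42. Genes that are mutated in Diamond-Blackfan anemia, a human failure of red cell formation, had 13 tested members with a median difference of 0.013, 9 of them higher. A list drawn up for the rim of the tunnel through which the new chain leaves the large subunit had 9, with a median of 0.0033 and 5 higher, but it also held RPL24, which lies at the interface of the subunits.

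Some ribosomal proteins have a close copy. RPS27L, a relative of RPS27 that p53 induces in human cells, had values of 10.62, 10.75 and 10.24 on v-Myb arrays and 10.55, 10.48 and 10.53 on N118D arrays. v-Myb replicate 3 was the lowest array and v-Myb replicate 2 the highest, and the difference was 0.018. RPL3L, which is known as a form found in striated muscle, was at 1.93 to 1.99 on all arrays and was not tested, while RPL3 was at 14.27, 14.29 and 14.19 against 14.27, 14.20 and 14.25. The gene annotated as RPL39L is listed in RefSeq with RPL39 as a synonym and so was not read as a copy. Its values were 14.56, 14.54 and 14.47 against 14.57, 14.46 and 14.48. RPL22, with a mean level of 14.70, RPL7 and RPL36A differed by 0.0033, -0.018 and -0.013 on the probe sets with their highest values. RPL7A and RPL10A stood in the same list, although their symbols do not mark them as copies of RPL7 and RPL10, and differed by -0.014 and 0.014. RPL22L1 and RPL7L1, outside the symbol rule, differed by 0.021 and -0.076 on theirs. Dim RPL22L1 probe sets differed by 0.030 and by -0.19 with a standard error of 0.12, and a dim RPL7L1 probe set by 0.32 with a standard error of 0.15. RPL26L1, for which RefSeq lists RPL26 as a synonym, had a mean level of 15.51 and differed by 0.036, and RACK1, a protein of the small subunit with a name of its own, differed by 0.021. Also outside the rule were RPSAP58 and RPS4Y1, chosen after their values were seen, for which RefSeq lists RPSA and RPS4X as synonyms. The 5 RPSAP58 probe sets differed by -0.029 to 0.036 and RPS4Y1 by -0.0021.

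Over all 6 arrays the bright members stayed within a narrow band. Of the 73 probe sets at 12 or over, 69 kept all 6 values within 0.2 log2 units, and the median range from lowest to highest array was 0.10. The least variable was RPL6, a large subunit protein, at 14.57, 14.60 and 14.56 against 14.58, 14.60 and 14.57. The median standard deviation over 6 arrays was 0.041 for the 68 members at 14 or over, beside 0.061 for the 155 other probe sets in that range. In the ranges 6 to 8 and 8 to 10 it was 0.12 and 0.11 for 11 and 9 members, beside 0.20 and 0.15 for the others. The ranges 10 to 12 and 12 to 14 held only 3 and 5 members, and levels were not matched within a range. The median was smaller in members than in the other probe sets in each of the 6 ranges of level. This difference was not tested, since probe sets of 1 array are not independent.

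**Figure D3:**
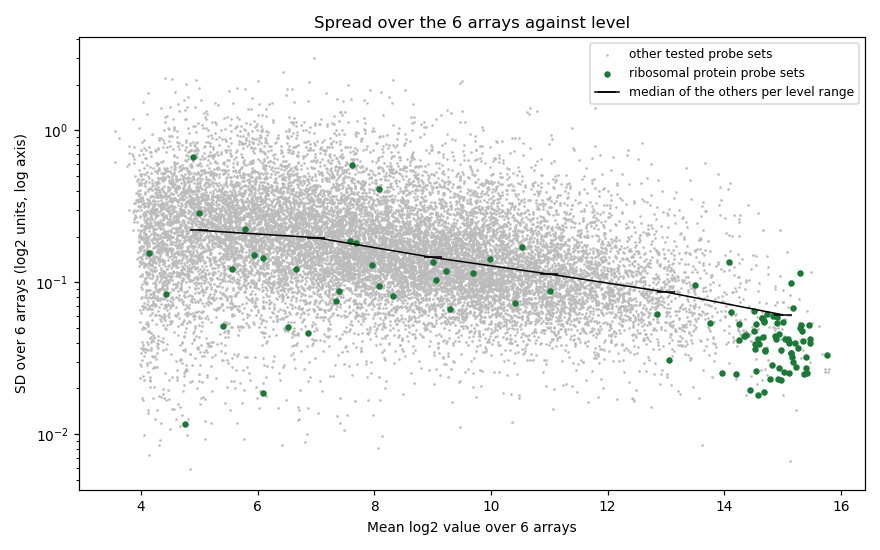
Standard deviation over the 6 arrays (log2 units, log axis) against the mean log2 value, for ribosomal protein probe sets (green) and other tested probe sets (grey), with the median of the others in each range of level as a black line. At 14 or over the median is 0.041 for the green points and 0.061 for the grey ones.

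What small movement the bright members showed was shared by many of them and ran across the groups. Relative to each probe set's own mean, the 73 members had a median deviation of 0.019, 0.029 and -0.037 on v-Myb replicates 1, 2 and 3, and of 0.024, -0.025 and 0.0046 on N118D replicates 1, 2 and 3. On v-Myb replicate 2, 59 of the 73 lay above their own mean, and on v-Myb replicate 3 only 13 did. The 1120 other probe sets at 12 or over had median deviations of 0.00076, 0.0012 and -0.013 on the v-Myb arrays and of 0.023, -0.0071 and 0.00078 on the N118D arrays. For the 155 others at 14 or over they were -0.0083, -0.00285 and -0.0036 on v-Myb and 0.016, -0.00037 and 0.0022 on N118D arrays. Small and large subunit genes went the same way on each array, with medians of -0.037 and -0.035 on v-Myb replicate 3. Across the 6 arrays the correlation between 2 bright members had a median of 0.45, beside 0.014 between other probe sets at 12 or over. Its lower quartile was -0.0065 in members, and 74.5% of their pairs were above 0, beside 50.9% for the others. Some pairs are probe sets of the same gene, and level was not matched. The correlation describes values that share 6 arrays and their normalization.

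**Figure D4:**
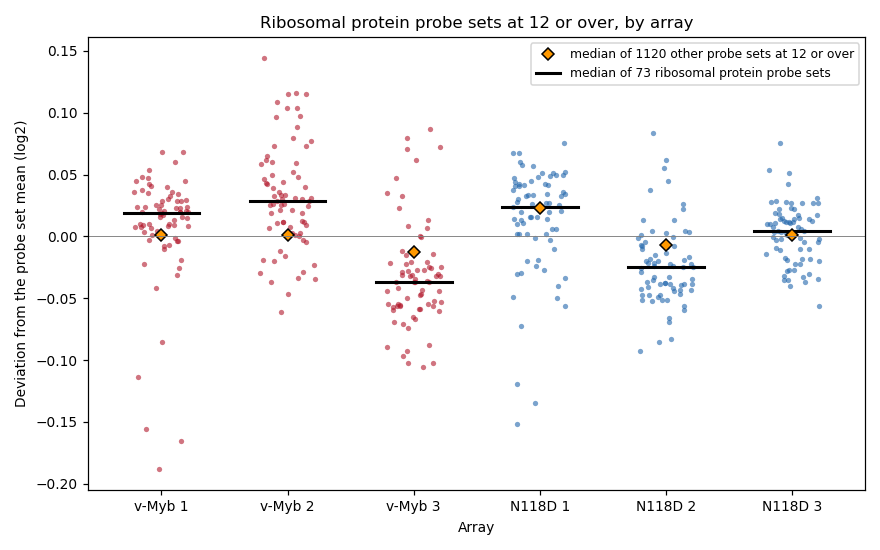
Deviation of each of the 73 ribosomal protein probe sets at 12 or over from its own mean over 6 arrays (log2), by array, with red points for v-Myb and blue points for N118D. Black bars are the medians, lowest at -0.037 on v-Myb replicate 3 and highest at 0.029 on v-Myb replicate 2, and diamonds the medians of 1120 other probe sets at 12 or over.

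On the tested members with the largest spread, probe sets of RPL12, RPL21 and RPL27, values followed the replicate number and not the group. The next largest spread was that of the RPS13 probe set on which N118D replicate 1 alone was high. RPL12, a protein at the base of the stalk of the large subunit, was at 4.05, 5.21 and 5.42 on v-Myb arrays and 4.02, 5.42 and 5.23 on N118D arrays on a probe set with a mean of 4.89. Both arrays numbered 1 were more than 1 log2 unit below the other 4, and the group difference was 0.0064 with a standard error of 0.51. The other RPL12 probe set was at 14.71, 14.70 and 14.61 against 14.69, 14.62 and 14.69, with no such step. RPL21, on a probe set with a mean of 7.63, was at 6.97, 8.15 and 7.95 against 6.79, 7.88 and 8.03. RPL27, a large subunit protein, was at 7.64, 8.26 and 8.53 against 7.48, 8.30 and 8.23 on one probe set and at 15.20, 15.20 and 15.14 against 15.20, 15.14 and 15.18 on another. In both genes the arrays numbered 1 were again lowest on the dim probe set given here. Other dim probe sets, with means of 7.69 and 10.41 for RPL21 and 6.53 for RPL27, did not have this order.

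**Figure D5:**
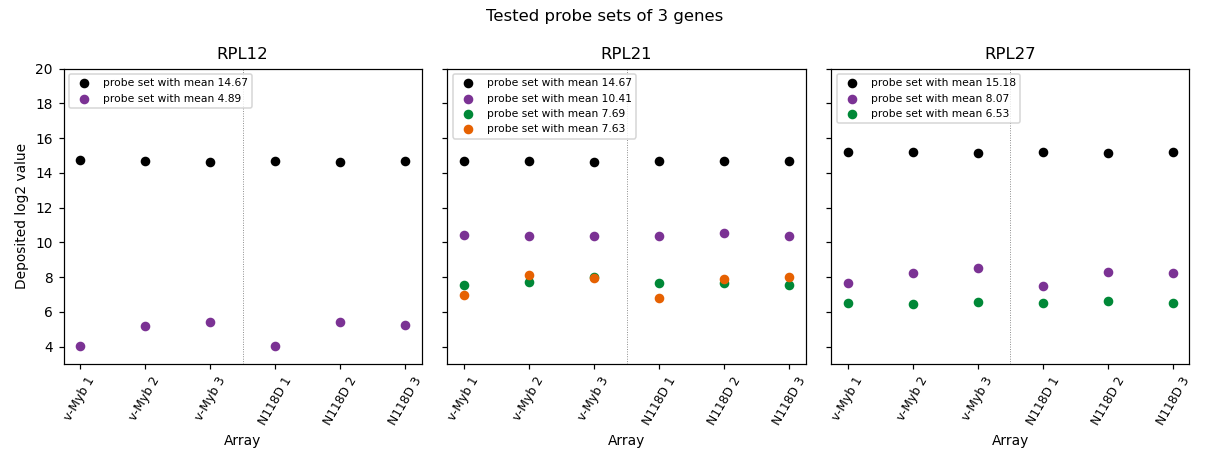
Deposited log2 values of all tested probe sets of RPL12, RPL21 and RPL27 on the 6 arrays, 1 colour per probe set, with v-Myb arrays left and N118D arrays right of the dotted line. On 1 probe set of each gene both arrays numbered 1 are lowest, while the probe set with the highest values is level.

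Of the 73 members at 12 or over, 6 were lowest on both arrays numbered 1 and 13 were highest there. That is 26.0% of them, beside 35.7% of the other probe sets at 12 or over. RPL4, a large subunit protein, was at 13.89, 14.23 and 14.12 against 13.93, 14.16 and 14.16 on one probe set and at 14.89, 14.95 and 14.85 against 14.83, 14.89 and 14.86 on another. RPS2, which lies at the entry of the messenger RNA channel, was at 15.13, 15.40 and 15.38 against 15.17, 15.33 and 15.34, and its second probe set was likewise lowest on both arrays numbered 1. The 13 with the opposite order included RPS24, a small subunit protein, at 15.41, 15.32 and 15.29 against 15.38, 15.34 and 15.36, and RPL36A, at 14.75, 14.68 and 14.59 against 14.72, 14.66 and 14.68. RPL4, RPS2, RPS24 and RPL36A were picked here after their values were seen. RPL31, a large subunit protein near the tunnel exit, also had this order on a dim probe set, at 6.02, 5.75 and 5.71 against 6.06, 5.72 and 5.45. A probe set for RPL35A, a large subunit protein, ranged from 7.37 to 7.85 with overlap between numbers.

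Both arrays numbered 1 lay below or above all other arrays for 30 of the 105 tested members, 14 below and 16 above. That is 28.6% of them, while the share over the whole table was 36.2%, so members did not exceed the background. The replicate number accounted for 77.5% of the members' summed squares and the group for 4.79%, and over all tested probe sets the shares were 56.3% and 12.3%. The number has 3 levels and the group 2, and RPL12, RPL21 and RPL27 weigh heavily in the members' sum. The median shares per member were 44.2% and 4.29%, beside 51.6% and 8.07% per probe set over the whole table. For the members at 12 or over the number's share of the summed squares was 55.6%, beside 60.5% for the other probe sets there. Beside this, the difference between the 3' and 5' control probe sets of EF1a was 0.78 on both arrays numbered 1 and 0.60 to 0.68 on the others. For actin it was 1.23 and 0.93 on v-Myb and N118D replicate 1 and 0.79 to 0.92 on the others, and for GAPDH the arrays numbered 1 lay within or next to the range of the others. The part of RNA integrity in these steps was not tested.

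A total of 27 member probe sets for 18 genes did not reach the minimum for testing. Their means ran from 1.96 to 3.93, and 17 lay under 3. They belonged to RPL11, RPL15, RPL21, RPL24, RPL29, RPL34, RPL38, RPL3L, RPL7, RPLP1, RPLP2, RPS12, RPS13, RPS14, RPS21, RPS24, RPS25 and RPS28, and each of these genes except RPL3L had another probe set that was tested. The highest of them, for RPL38, was at 3.61, 4.26 and 4.78 on v-Myb arrays and 3.64, 3.61 and 3.66 on N118D arrays. v-Myb replicates 2 and 3 were above the other 4 arrays there, which the bright RPL38 probe sets did not show. The groups did not overlap on an untested probe set for RPS13 and on one for RPL7, with differences of 0.071 and -0.052.

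Tested members with a mean under 8 numbered 20 and belonged to genes with a brighter probe set, apart from those of RPS13. Besides those described, they stood for RPL24, RPL13, RPL23, RPL9, RPL38, RPL10A, RPL35A and RPL27, with differences from -0.038 to 0.044, and for a further RPS25 probe set with a mean of 6.67 and a difference of -0.060. RPL23, with a mean of 5.94, and RPL10A, with one of 7.34, were lowest on both arrays numbered 1, while 2 RPL9 probe sets with means of 6.10 and 7.40 were highest there.

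Other genes of the translation apparatus, taken from lists, were described by the probe set with the highest mean for each gene, and 0 passed the test in either direction. Elongation factors and further genes with TOP messenger RNAs had a median difference of 0.031 with 11 of 16 higher. BTF3, EIF4B and EEF1B2 had the smallest p there and differed by -0.10, 0.30 and 0.053. EIF4B was at 5.69 on N118D replicate 1 and 6.49 on v-Myb replicate 1, against 7.09 to 7.26 on the other arrays. Initiation factors had a median of -0.0050 with 13 of 29 higher, and EIF5A2, EIF2B2 and EIF4A2 differed by 0.085, -0.075 and -0.058. Ribosome assembly factors had a median of 0.013 with 25 of 44 higher, and RRP12, NOB1 and PES1 differed by 0.13, 0.11 and 0.10. Genes of RNA polymerase I, which makes ribosomal RNA, were listed with other genes for transcription of ribosomal DNA, MYC and MYCN among them. This list had a median of -0.027 with 5 of 13 higher, and TCOF1, POLR1E and POLR1A differed by 0.083, -0.094 and 0.065. Proteins of the mitochondrial ribosome had a median of -0.026 with 26 of 62 higher, and MRPL22, MRPS6 and MRPS17 differed by 0.16, 0.10 and -0.10. In the mTOR and S6 kinase list, with a median of -0.016 and 6 of 13 higher, RPS6KA5 differed by 0.37 with an unadjusted p of 0.0339 in limma. Its probe set had a mean of 4.58, close to the minimum of 4 for testing. RPS6KB1, the S6 kinase that phosphorylates RPS6, differed by -0.17 and RHEB, the activator of mTOR, by -0.14. RPS6 itself, with a mean level of 15.31, was at 15.33, 15.38 and 15.26 on v-Myb and 15.36, 15.26 and 15.29 on N118D arrays.

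The cultures carried neural crest markers, with 8 of 9 listed genes tested and a mean level of 8.52 to 9.23 per array. All 8 were higher in v-Myb cultures, with 0 past the test and a median of 0.23. Markers of other cell types were present too. The 10 tested epithelial genes of 15 listed were all lower in v-Myb cultures, with 0 past the test and a median of -0.87. Their mean level was 9.64, 7.91 and 8.56 on the v-Myb arrays and 9.48, 10.05 and 9.53 on the N118D arrays. The 7 tested neuronal genes had a mean level of 10.85 on v-Myb replicate 1 and 8.80 to 9.92 elsewhere, and their median difference was -0.0047 with 3 higher. The 4 tested neural tube genes had a mean level of 9.15 there and 7.14 to 8.72 elsewhere, and a median of -0.42 with 1 higher. All 12 mesenchymal and matrix genes were lower in v-Myb cultures, with a median of -0.12. Skeletal muscle markers had 4 tested genes of 6 listed, with a median of -0.28 and 1 higher. Blood and macrophage markers had 2 of 9 listed, with a median of 0.058. These 2 went opposite ways, PTPRC by 0.38 and CD74 by -0.26. The part of this mixture in the members' values was not tested.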

How the data were processed

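The values are log2 intensities as deposited, 1 for each probe set on each array. The submitters' processing notes name the tools GCRMA and Partek 6.4 with no role or order. Scale was read from the values (0.78 to 15.83, array medians 3.08 to 3.12). GCRMA shrinks differences at low levels. Biotin-labelled RNA was made from 100 ng total RNA with a 3' in vitro transcription kit, per the labels' protocols.

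After leaving out 96 control probe sets, 16526 of 38439 with at least 4 on at least 3 of 6 arrays were tested with limma 3.58.1 in R 4.3.3 (lmFit and eBayes, group as the only term, two-sided, Benjamini-Hochberg over all tested, threshold 0.05), checked on simulated data. An exact permutation of 3 against 3 arrays cannot go below 0.1. Symbols were taken from an annotation of the platform that can be out of date, and all 62 member genes matched RefSeq gene IDs. Members and lists were chosen with earlier results of these data known. Named were the 6 members with the smallest p in each direction, the 6 with the largest spread, members of role lists, those with a mean below 8, genes with opposed probe sets, and up to 3 genes per related list. Same-numbered replicates correlated at 0.40, 0.45 and -0.048 in their deviations from group means, and differently numbered ones at -0.57 to 0.42. Deviations from a mean of 3 arrays are not independent, so these values do not settle whether the numbers pair the cultures. The main fit did not use the numbers, and a replicate block was run as an alternative. The number of arrays limits the precision.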

Additional observations from a re-analysis of the deposited data

How the results depend on the processing

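No member passed the adjusted threshold under any alternative: a filter at 6 or none, median centring or quantile normalization, trended and robust eBayes, array weights, a replicate block, other definitions of the members, and leaving out arrays. Leaving out both arrays numbered 1 was chosen after seeing the data. The count over all tested probe sets was likewise 0 wherever it was run, with 176 to 1196 at an unadjusted p under 0.05. With the replicate block the counts were 0 and 0, the median difference 0.0062, and 62 members were higher. At an unadjusted p under 0.05 in limma there were 666 probe sets with the block and 315 without it, with 0 members in each. The count of members without overlap, 3 as reported, was 5 (3.79%, beside 7.75% of all) without a filter, 0 (beside 5.18%) with probe sets averaged per gene, 24 (23.1%, beside 36.4%) without both arrays numbered 1, and 4 to 18 (3.81% to 17.1%, beside 9.87% to 25.1%) with 1 array left out, where fewer arrays make separation easier. Members higher in v-Myb cultures were 40 of 60 with genes as units and 36 to 73 of 105 with 1 array left out. The median difference ran from -0.011 to 0.019 with 1 array left out, beside -0.0078 to 0.0079 over all tested probe sets. The members' median spread over arrays ran from 0.042 to 0.052. Without a filter 4 of 132 members, RPS12, RPS13, RPL7 and RPL36, reached an unadjusted p under 0.05 in limma, beside 734 of 38439 probe sets. RPS25 alone did so with array weights, beside 671 of 16526, and without v-Myb replicate 1, beside 1196 of 16440. It was also the only member to do so without both arrays numbered 1, beside 1063 of 16330. RPS13 was the only one without v-Myb replicate 2, beside 176 of 16476. Of 746 values for 54 named probe sets under alternatives, 92 changed sign, and 0 passed the adjusted threshold. Of the tested members 9 had a mean under 6, close to the minimum of 4, where signal over background limits what differences can show.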
